A study of Homo sapiens with 22 samples.

Results

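The 19346 protein-coding genes of control MDA-MB-231 cells were grouped by how often open chromatin was found at their start, and their RNA level was read from the same cells. MDA-MB-231 is an established human line from a triple-negative breast cancer. The cells carried the control hairpin shControl, named as the treatment of all libraries, and the labels speak of infected cells for ATAC-seq only. These 3 RNA-seq and 3 ATAC-seq libraries are 6 of the 22 samples of the series, and 3 RNA-seq and 3 ATAC-seq libraries of shLOXL2 cells, in which the hairpin targets LOXL2 (lysyl oxidase-like 2), served as a second set. Nothing in the labels says whether the replicates were separate cultures, so spreads and p-values cover these libraries only, and the RNA and ATAC libraries are separate samples of the line.

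A gene belonged to class 0, 1, 2 or 3 by the number of shControl ATAC libraries with a peak that overlapped, by at least 1 base, the 1 kb on either side of its annotated start. Of 20175 protein-coding genes in the annotation, 771 had no row in the count files, 45 lay on chromosome Y and 13 on the mitochondrial genome, and the other 19346 were grouped. Class 0 held 8458 genes (43.7%), class 1 held 1154 (5.97%), class 2 held 1956 (10.1%) and class 3 held 7778 (40.2%). Most genes were thus at either end, with a promoter peak in every library or in none.

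A promoter is the stretch of DNA around a gene's start where RNA polymerase II is loaded. At promoters in use, nucleosomes are commonly displaced, and the Tn5 transposase of ATAC-seq cuts the freed DNA, so reads pile up into a peak. Promoters of genes used in most cells often lie in CpG islands, stretches rich in CG dinucleotides, whereas many promoters of tissue-restricted genes are poor in CpG and more often carry a TATA box. Triple-negative tumours lack the estrogen and progesterone receptors and amplification of the HER2 gene ERBB2, and MDA-MB-231 is widely used as a mesenchymal-like example.

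The 250 bases before the start of 4 genes show what the classes look like in sequence, with every CpG in capitals (GRCh37, 5′ to 3′ on the gene's strand). VIM (chr10:17269990-17270239, plus strand) and ZEB1 (chr10:31607174-31607423, plus strand) are mesenchymal genes of class 3. CCND1 (chr11:69455674-69455923, plus strand) is shown because it had much RNA and no peak. KRT5 (chr12:52914315-52914564, minus strand) is a basal keratin gene of class 0 with almost no RNA.
VIM: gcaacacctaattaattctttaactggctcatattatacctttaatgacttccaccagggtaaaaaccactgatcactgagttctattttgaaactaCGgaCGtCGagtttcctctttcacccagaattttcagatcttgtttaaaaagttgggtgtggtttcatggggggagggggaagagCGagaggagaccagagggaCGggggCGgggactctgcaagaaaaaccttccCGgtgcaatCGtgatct
ZEB1: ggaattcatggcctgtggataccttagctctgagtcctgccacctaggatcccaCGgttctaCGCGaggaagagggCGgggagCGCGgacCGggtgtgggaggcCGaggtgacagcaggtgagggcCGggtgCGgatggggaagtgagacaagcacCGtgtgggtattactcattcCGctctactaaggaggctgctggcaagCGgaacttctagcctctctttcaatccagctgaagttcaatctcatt
CCND1: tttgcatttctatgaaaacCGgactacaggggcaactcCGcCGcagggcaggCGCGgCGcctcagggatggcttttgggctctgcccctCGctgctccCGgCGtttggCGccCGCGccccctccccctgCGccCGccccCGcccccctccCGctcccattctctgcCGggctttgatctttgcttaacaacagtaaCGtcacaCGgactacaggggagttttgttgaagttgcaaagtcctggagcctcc
KRT5: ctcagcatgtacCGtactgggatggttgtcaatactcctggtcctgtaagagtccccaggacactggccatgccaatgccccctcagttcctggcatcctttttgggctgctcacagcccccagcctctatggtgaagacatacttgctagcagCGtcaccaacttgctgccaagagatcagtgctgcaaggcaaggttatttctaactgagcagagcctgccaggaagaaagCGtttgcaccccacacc
The stretches hold 8, 13, 19 and 3 CpG in this order, so the 2 genes of class 0 have the most and the fewest.

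The 3 ATAC lists were unequal. Replicates 1, 2 and 3 held 27099, 45416 and 36967 peaks, and 7987, 10514 and 9899 of the grouped genes had a promoter peak in them. Replicate 1, the smallest list, decided most partial classes: 1800 of the 1956 class 2 genes lacked a peak in replicate 1 only. The peaks of these genes in replicates 2 and 3 had a median score at percentile 32.8 of their list, against 72.5 in class 3. Without replicate 1, 9578 genes had a peak in both remaining libraries and 8511 in neither. In RNA, library totals were 40308300, 49375803 and 40851123 counts, and replicate 3 stood apart, with a mean chi-square per gene of 19.7 and 17.3 against replicates 1 and 2, which differed from each other by 4.98.

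RNA level was higher in every class with more libraries with a promoter peak. RNA is given in CPM, the count of a gene divided by the library total and multiplied by 1000000, as the mean of the 3 libraries. The median gene had 0.0163 CPM in class 0, 15.4 in class 1, 30.7 in class 2 and 37.7 in class 3. The share of genes at 1 CPM or more was 26.0%, 74.3%, 85.4% and 90.0%. Each RNA library gave the same order of classes, and the medians of class 3 were 37.8, 37.3 and 37.8 CPM in replicates 1 to 3, an SD of 0.257, far below the steps between classes. Those of class 0 were 0.0248, 0.0203 and 0.0245 CPM, about the worth of 1 read.

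**Figure D1:**
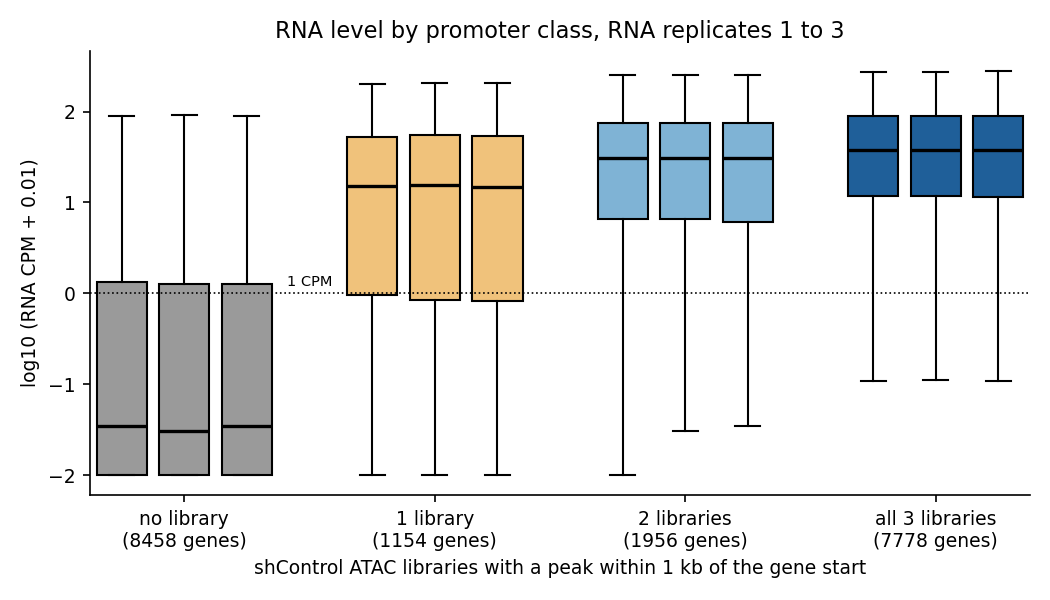
RNA level of protein-coding genes on a log10 scale (CPM plus 0.01) by promoter class, with 1 box per shControl RNA library (box: quartiles, line: median, whiskers: 5th to 95th percentile of genes). The class 0 boxes lie mostly below 1 CPM in all 3 libraries, whereas the medians of classes 1 to 3 lie above 10 CPM.

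The order was the same per kilobase of exon. The median was 0.0048, 3.08, 5.72 and 6.50 CPM per kb in classes 0 to 3, with class 3 at 6.55, 6.49 and 6.59 in the 3 libraries. Class 3 genes supplied 63.7% of all counts in grouped genes, class 2 supplied 14.8%, class 1 7.07% and class 0 14.4%. Genes with no count in any RNA library made up 40.8% of class 0 (3451 genes) and 2.24% of class 3 (174 genes). Bulk libraries cannot tell fewer cells with a transcript from less transcript per cell, and likewise for open chromatin.

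Read the other way, from RNA to chromatin, the share of class 3 climbed steeply at low RNA and changed less above 10 CPM. It was 4.61% of the 3774 genes without a count, 9.34% up to 0.1 CPM, 24.4% from 0.1 to 1 CPM, 43.0% from 1 to 10 CPM and 63.3% from 10 to 100 CPM. It was 65.6% from 100 to 1000 CPM and 51.0% of the 49 genes above 1000 CPM. From 10 to 1000 CPM the share thus changed little, and it was lower in the few genes above.

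**Figure D2:**
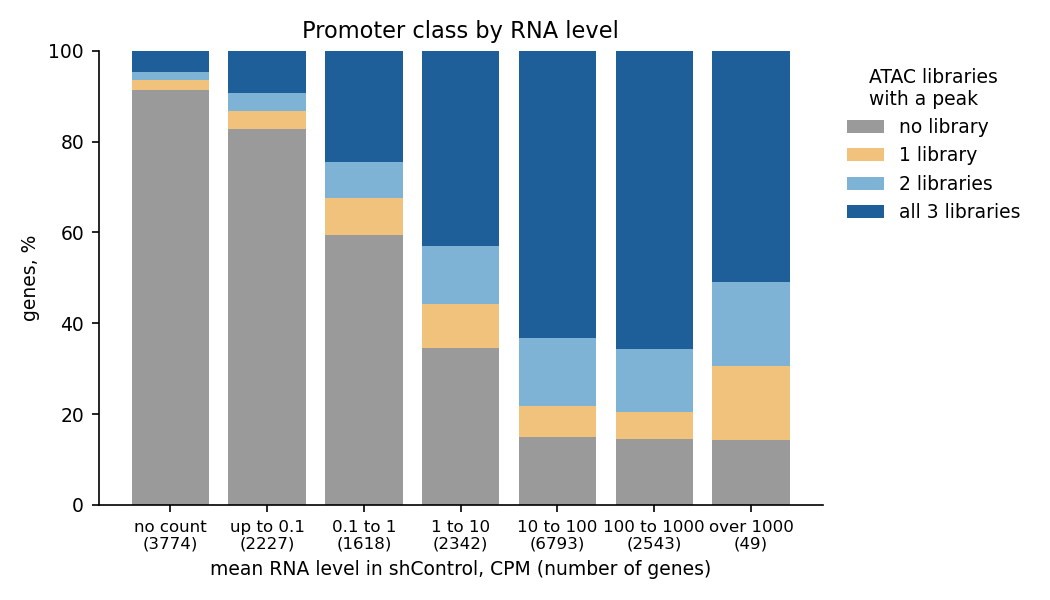
Share of protein-coding genes in each promoter class (stacked bars, %) by mean shControl RNA level in CPM, with the number of genes below each bar. The class 3 share goes from 4.61% of genes without a count to 65.6% at 100 to 1000 CPM.

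Within class 3 the strength of the peak carried little information on the RNA level. The authors' score of each peak was turned into a percentile of its list and averaged over the 3 libraries. Across the 7604 class 3 genes with a count, Spearman's rho between this percentile and CPM per kb was -0.017, a description across genes that share the same libraries. The quartiles of the score, from low to high, had median RNA levels of 36.3, 40.0, 38.3 and 36.7 CPM. Peaks sat close to the start: the midpoint lay within 250 bases of it for 69.8%, 66.7% and 69.5% of class 3 genes in replicates 1 to 3. In the last 100 bases inside the 1 kb limit the nearest peak was found for 64, 94 and 66 genes in replicates 1 to 3, with a median of 45.7, 9.48 and 21.2 CPM. In the first 100 bases outside it was found for 48, 69 and 86 genes with 30.3, 11.1 and 25.3 CPM.

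The most abundant transcripts of class 3 per kilobase came from S100A6, ACTB, VIM, S100A11 and HSP90AA1. S100A6, a calcium-binding protein, had 2067, 1829 and 1657 CPM in replicates 1 to 3 (1906 CPM per kb). ACTB, the cytoplasmic actin, had 3790, 4048 and 4158 CPM (908 CPM per kb), although its annotated start lies 33301 bases from that of its canonical transcript. HSP90AA1, the inducible cytosolic chaperone, had 2617, 2614 and 2974 CPM (537 CPM per kb). S100A11 had 562 CPM per kb, with a mean score percentile of 99.3, and VIM had 733 CPM per kb. For ACTB the percentile was 12.7. These scores belong to peaks at the annotated gene start. For S100A11 and HSP90AA1 that start also lies 10903 and 52655 bases from the canonical one. ACTB, S100A11 and HSP90AA1 each had a peak at the canonical start in all 3 libraries as well, so the scores need not describe the promoter that gives this RNA.

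Sequence differed along with class. In the window from 250 bases before to 50 after the start, the observed over expected CpG ratio had a median of 0.325, 0.750, 0.822 and 0.835 in classes 0 to 3, and 0.701 over all 19346 genes. Promoters with a ratio of at least 0.6 and at least 50% GC, called CpG-rich here, made up 26.9%, 62.7%, 74.4% and 80.8% of the classes and 55.5% of all genes. The median of class 3 was 0.835 also with equal numbers of peaks per library.

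The step in RNA level between classes was present in CpG-rich and in CpG-poor promoters alike. Of CpG-rich promoters, 33.1% of 2278 in class 0 and 91.1% of 6288 in class 3 had RNA at 1 CPM or more. Of CpG-poor promoters, the shares were 23.4% of 6180 in class 0 and 85.6% of 1490 in class 3. Median levels in class 3 were 40.0 CPM for CpG-rich and 28.5 CPM for CpG-poor promoters. A CpG-rich promoter without a peak was therefore much closer in RNA level to a CpG-poor one without a peak than to a CpG-rich one with peaks.

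Short promoter words were counted on both strands of the same window, where matches to different words may overlap. TATAAA, the core of the TATA box, was in 16.4% of class 0 and 5.62% of class 3 promoters, against 10.7% of all. GGGCGG, the GC box bound by Sp1, was in 33.9% and 69.1% (52.7% of all). CCGGAAG, a core read by ETS factors, was in 4.04% and 18.5% (11.9% of all). ATTGG, the CCAAT box, was in 34.0% and 39.3% (35.8% of all). TGANTCA, the AP-1 word, was in 8.21% and 4.69% (6.36% of all). Word counts partly follow base composition: among CpG-rich promoters alone the GC box was in 77.5% of class 0 and 78.4% of class 3, whereas the ETS word was in 8.91% and 20.5% and the CCAAT box in 26.8% and 39.1%. For the AP-1 word the direction was the opposite within both promoter types, with 2.68% of class 0 and 3.21% of class 3 among CpG-rich and 10.2% and 10.9% among CpG-poor promoters. A match is a description of the letters and not of a bound factor.

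Class 3 promoters also shared their start with another gene more often. Another protein-coding start lay within 1 kb of 26.7% of class 3 genes (2079), 22.2% of class 2, 18.6% of class 1 and 6.31% of class 0 (534). Among genes with no other annotated start within 1 kb, the share at 1 CPM or more was 91.3% in class 3 and 25.1% in class 0.

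Gene families differed widely in class. The lists had been drawn up with earlier results of these data known, so the counts describe them, beside 40.2% class 3 and 43.7% class 0 over all grouped genes. Of 28 genes of DNA replication and mitosis, 20 were in class 3, 6 in class 2, MCM7 in class 1 and CDT1 in class 0, and all 28 had at least 1 CPM (median 246). TOP2A, the topoisomerase of dividing cells, led them with 1059, 1030 and 1118 CPM. CDT1, a licensing factor, had 35.2, 39.8 and 43.2 CPM with the nearest peak 7674 to 8262 bases away.

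Most genes of the housekeeping complexes were in class 3, at shares near or below those of all genes with similar RNA. Class 3 held 25 of 38 proteasome subunits, 22 of 37 subunits of respiratory complex I and 44 of 86 cytosolic ribosomal protein genes, with median levels of 171, 55.1 and 247 CPM. These shares were 65.8%, 59.5% and 51.2%. Of all grouped genes, 63.3% were in class 3 at 10 to 100 CPM and 65.6% at 100 to 1000 CPM. Among the ribosomal protein genes 15 were in class 0, and 12 of these had at least 1 CPM. Of 500 ZNF-numbered zinc-finger genes, mostly repressors of the KRAB type, 270 were in class 3 at a median of only 9.71 CPM.

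Families known from other tissues had few promoter peaks. Of 383 olfactory receptor genes, 373 were in class 0, and 360 had no count at all. All 67 cancer-testis antigen genes were in class 0, and 54 had no count; MAGEC1 with 6.25 CPM, MAGEC2 with 1.66 and PAGE5 with 6.39 were the 3 at 1 CPM or more. Class 0 held 36 of 39 HOX genes, although 23 of the 39 promoters were CpG-rich. Among HOX genes HOXB9 had 23.5 CPM in class 0, whereas HOXA13 and HOXD1 were in class 3 with 1.79 and 3.59 CPM. Class 0 also held 45 of 46 defensin genes and 88 of 92 genes of keratin-associated proteins, which are hair proteins.

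Replication-dependent histone genes had little RNA for a family with many promoter peaks. Of 33 such genes, whose transcripts lack a poly(A) tail, 19 were in class 3 and 10 in class 0, yet their median level was 0.0312 CPM and 15 had no count. Of the 19 in class 3, 9 had under 1 CPM. Of the 10 genes of the family at 1 CPM or more, 0 were in class 0, so within the family RNA still went with promoter peaks.

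**Figure D3:**
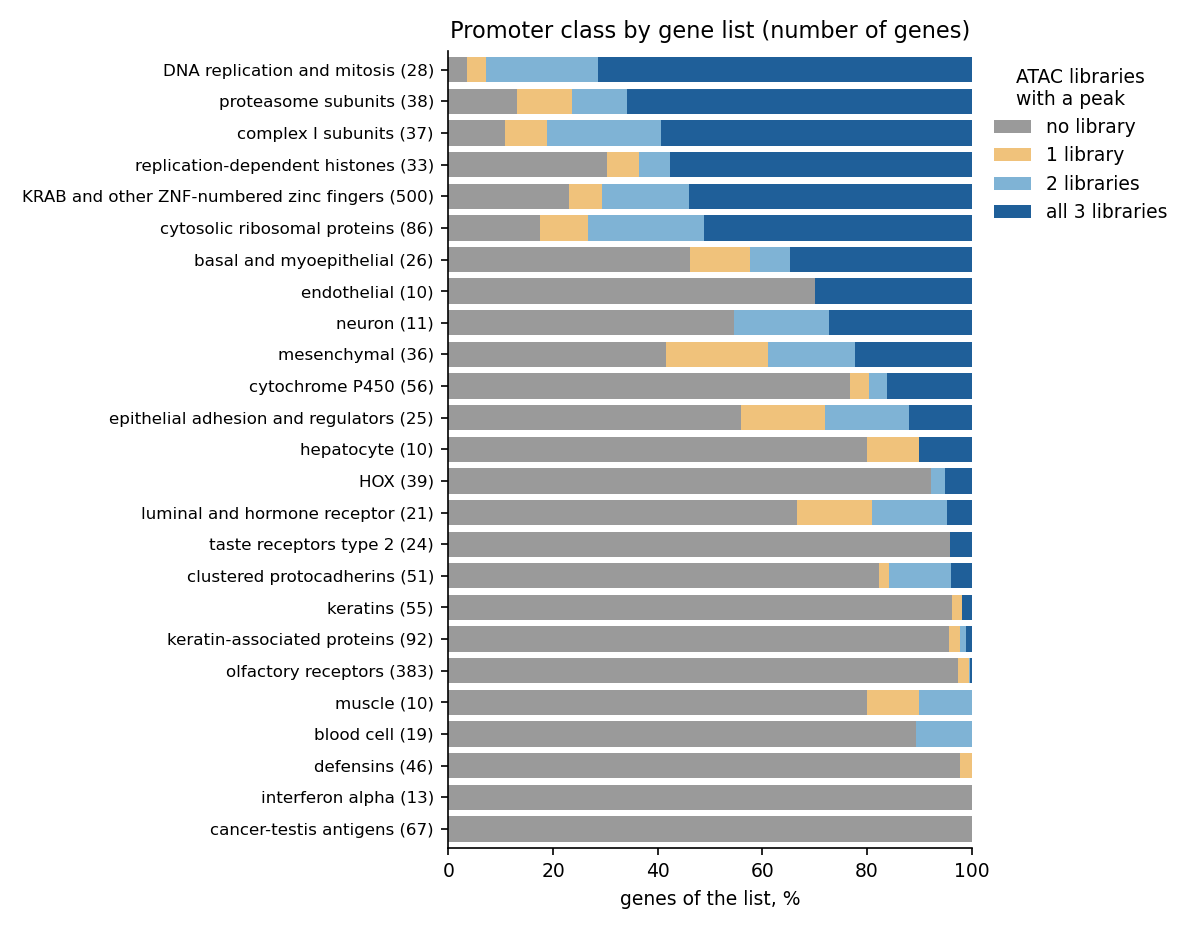
Share of genes in each promoter class (stacked bars, %) for the gene lists and families, with the number of grouped genes in parentheses. DNA replication and mitosis genes lead with 71.4% in class 3, and the interferon alpha and cancer-testis families lie wholly in class 0.

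Markers of other cell types were mostly, but not all, without a peak. Of 19 blood cell markers 17 were in class 0, 9 had no count and 4 had at least 1 CPM, and their summed level was 13.0 to 15.9 CPM over the 3 libraries. CSF1R (7.26 CPM) and CD14 (2.45 CPM) had a promoter peak in 2 libraries, but CSF1R had none at its canonical start. CD34 and LYZ had 2.35 and 2.09 CPM in class 0, and CD3E and HBB were at 0 counts. CD34 had a peak at another annotated start in all 3 libraries, and LYZ at none. Of 10 muscle markers 8 were in class 0 and the sum was 0.223 to 0.343 CPM. Of 10 endothelial markers 7 were in class 0, but ESAM (109 CPM), ROBO4 (42.6 CPM) and KDR (10.5 CPM) were in class 3. The list thus summed to 156 to 172 CPM, while the means of VWF and CDH5 were below 0.1 CPM. PPARG, the adipocyte regulator, was in class 3 with 54.8 CPM, CEBPA was in class 3 with 1 count, and ADIPOQ and LEP had no count. Of 10 hepatocyte markers 8 were in class 0 and 1 in class 3, and 2 had at least 1 CPM, with a sum of 38.1 to 44.6 CPM and HNF4A at 0 counts. These 2 were CPS1 with 10.5 CPM in class 3 and SERPINA1 with 31.0 CPM in class 0. SERPINA1 had a peak at its canonical start in all 3 libraries, and CPS1 in none. Of 11 neuron markers 6 were in class 0 and 3 in class 3, and 4 had at least 1 CPM, with a sum of 16.9 to 19.0 CPM and NEUROD1 and STMN2 at 0 counts. The part of such other cell types in the results was not tested.

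The 4 breast lineage lists differed in class and RNA level. Classes 0 to 3 held 14, 3, 3 and 1 of 21 luminal and hormone receptor genes, 14, 4, 4 and 3 of 25 epithelial adhesion genes and regulators, 12, 3, 2 and 9 of 26 basal and myoepithelial genes, and 15, 7, 6 and 8 of 36 mesenchymal genes. Their median levels were 10.8, 1.08, 4.36 and 167 CPM, against 8.27 CPM over all grouped genes. Mesenchymal genes had the highest median RNA level of the 4 lists, with 30 of 36 at 1 CPM or more, and 22.2% of them were in class 3. Without ATAC replicate 1, genes with a peak in both remaining libraries numbered 4 in the luminal, 7 in the epithelial and 13 in the mesenchymal list.

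The estrogen and progesterone receptor genes had almost no RNA, whereas ERBB2 had RNA and a promoter peak. ESR1, the estrogen receptor, had 0, 1 and 1 counts in replicates 1 to 3 and was in class 0, with a peak at another annotated start in 2 libraries and at its canonical start in 1. PGR, the progesterone receptor, had 5 counts in each library, 0.124, 0.101 and 0.122 CPM, and a promoter peak in replicates 2 and 3. A count of 0 allows up to 3 counts, 0.0744, 0.0608 and 0.0734 CPM in the 3 libraries, for counting error only, so ESR1 was below this limit and PGR slightly above it. ERBB2 had 96.3, 97.0 and 89.9 CPM and was in class 3 at its annotated gene start, but had no peak within 1 kb of its canonical transcript start in any library.

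Regulators of the luminal state did not follow one pattern. GATA3 had 10.9, 11.1 and 10.5 CPM and a promoter peak in replicate 2 only. FOXA1, a pioneer factor of luminal cells, had 3 counts per library, 0.0744, 0.0608 and 0.0734 CPM, but a promoter peak in replicates 2 and 3, and in all 3 libraries at its canonical transcript start. XBP1, a secretory-pathway factor, was in class 2 with 95.0, 83.8 and 90.3 CPM. FOXA1 and PGR were thus genes with peaks in 2 libraries and RNA at or near the counting limit.

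Simple keratins were the reverse, with much RNA and no peak at the start. KRT8 had 294, 292 and 280 CPM, KRT18 had 222, 234 and 225 CPM, KRT19 had 284, 267 and 216 CPM, and KRT7 had 217, 222 and 217 CPM, all in class 0. Around KRT18 the nearest peak lay 21270 to 21299 bases from the start. KRT8 had a peak in all 3 libraries at another annotated transcript start, KRT7 in 1 library, and KRT18 and KRT19 at none. Across the whole keratin family 53 of 55 genes were in class 0, and the only class 3 member was KRT80 with 136 CPM.

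Epithelial adhesion genes ranged from no count to 141 CPM, with a median of 1.08 CPM. CDH1, which encodes E-cadherin, had 13, 14 and 12 counts, 0.323, 0.284 and 0.294 CPM, and was in class 0. EPCAM, an adhesion molecule of carcinoma cells, had 13.5, 12.3 and 13.9 CPM and a peak in replicates 2 and 3. DSP, the desmosome protein desmoplakin, was the highest of this list with 138, 145 and 141 CPM in class 3. The claudin genes CLDN3 and CLDN4 had 0 and 1 counts over the 3 libraries, whereas CLDN7 had 43.6, 38.3 and 30.4 CPM in class 0. PKP3, which encodes a desmosome plaque protein, had 20.4 CPM in class 0.

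Basal genes also ranged widely. KRT5 had 0, 0 and 16 counts, all from replicate 3, and KRT14 had 0, 3 and 5 counts, and both were in class 0, whereas KRT15 had 9.18, 7.05 and 6.85 CPM with a promoter peak in 1 library. TP63, a regulator of basal cells, had 1.96, 1.62 and 1.32 CPM in class 3, so its promoter peak came with little RNA, and OXTR, the oxytocin receptor, was in class 3 with 4.73 CPM. EGFR had 329, 362 and 386 CPM and a promoter peak in replicates 2 and 3, with the nearest peak of replicate 1 at 22773 bases. LAMA3 and LAMB3, which encode laminin chains, were in class 3 with 108 and 590 CPM. SOX10, a neural crest factor found in many triple-negative tumours, had no count.

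Mesenchymal genes ranged from no count to the highest levels of the 4 lists. VIM, the intermediate filament vimentin, had 3767, 3864 and 3750 CPM in class 3, with peaks at 0 to 10 bases from the start. FN1, fibronectin, had 1192, 1250 and 945 CPM in class 3, the lowest in replicate 3. ZEB1, a repressor of epithelial genes, had 117.7, 117.9 and 117.5 CPM in class 3. CD44, the hyaluronan receptor, had 919, 929 and 950 CPM with a promoter peak in replicate 2 only, and AXL, a receptor tyrosine kinase, had 989, 1031 and 1077 CPM with a promoter peak in replicate 3 only. CDH2, N-cadherin, had 0.571, 0.425 and 0.832 CPM in class 0. CDH11, another mesenchymal cadherin, had 171, 165 and 151 CPM, in class 0 at its gene start and with a peak at another start in 2 libraries. Counting any annotated transcript start, 16 mesenchymal genes had a peak in every library and 8 in none.

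**Figure D4:**
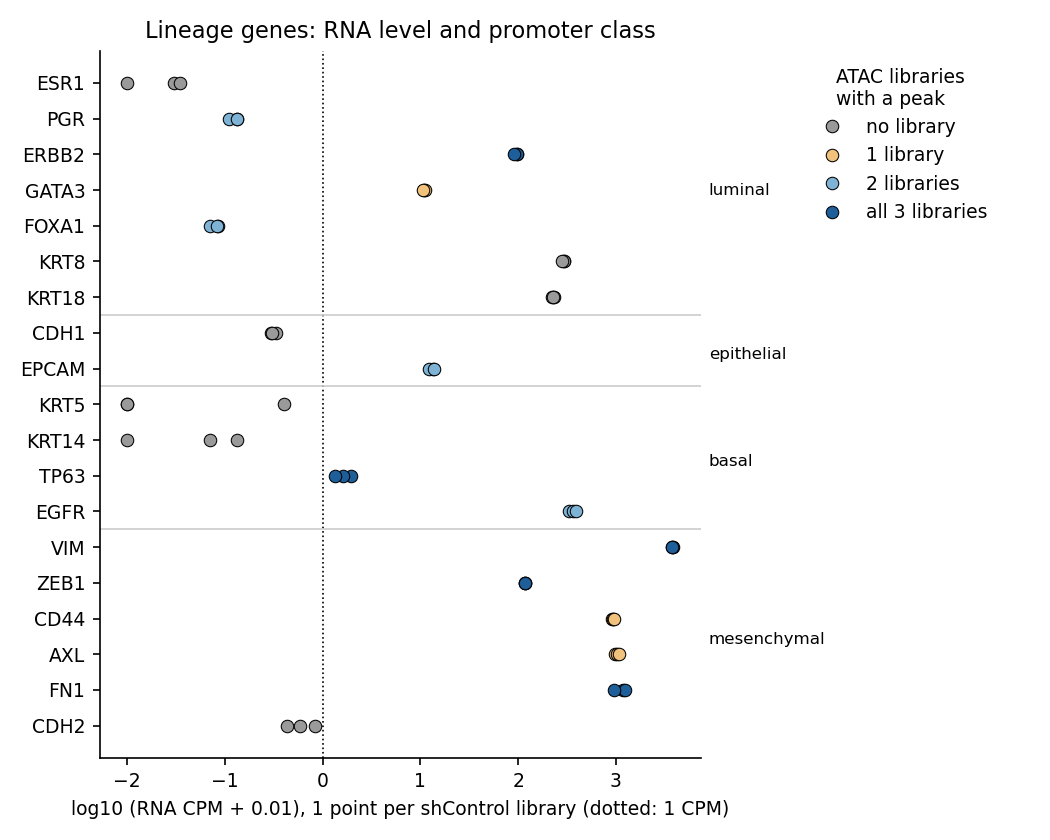
RNA level (log10 of CPM plus 0.01, 1 point per shControl library) of 19 lineage genes, coloured by the number of ATAC libraries with a promoter peak. KRT8 and KRT18 lie above 200 CPM without a promoter peak, whereas PGR and FOXA1 lie below 1 CPM with a peak in 2 libraries.

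Genes with RNA but no promoter peak were of 2 kinds. Of 9385 genes at 10 CPM or more, 5994 were in class 3 and 1389 (14.8%) in class 0. Of these 1389, 856 had a peak at another annotated transcript start of the same gene, and 533 (5.68% of the 9385) had none at any start. The first kind had CpG-poor annotated starts, with a median ratio of 0.275, whereas the second had a median ratio of 0.761, near the 0.846 of class 3 genes at this level. Most class 0 genes at this RNA level thus had a peak at a start other than the outermost one. Of the 533 without a shControl peak at any start, 249 had a peak within 1 kb of the gene start in the shLOXL2 libraries, whose lists held more peaks.

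The class 0 genes with the most RNA showed both kinds. CCN1, a matricellular protein and early response gene, had 1702, 1620 and 2740 CPM, the highest in replicate 3, with the nearest peaks 2075 to 3251 bases away and none at any start. EEF2, the translation elongation factor, had 1186, 1206 and 1218 CPM and likewise no peak at any start, the nearest being 14000 bases away. CFL1, NCL, GNAS, TGM2, TPM4, CTNNA1 and KTN1 had 867 to 1184 CPM and a peak at another annotated start in 2 or 3 libraries. For CTNNA1 the canonical start lies 142458 bases from the gene start. Next to CCN1 and EEF2, the highest genes without a peak at any start, chosen after their values were seen, were CCND1 with 753, 808 and 883 CPM, MMP14 with 869, 805 and 691 CPM and FTL with 835, 758 and 712 CPM. CCND1 encodes cyclin D1, MMP14 a membrane-bound matrix protease and FTL the ferritin light chain.

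The 533 genes lay in GC-rich surroundings. Over the 100 kb around the start their median GC was 52.0%, against 42.7% for class 3 genes at 10 CPM or more. Sorting all 9385 genes by this regional GC, a division made after seeing the data, the share of class 3 fell from 85.9% below 38% GC to 81.3%, 70.1%, 54.7%, 39.6% and 31.1% at 54% GC or more. The median RNA level of these bins moved only between 45.8 and 58.7 CPM. The fall was present in each library, from 86.5% to 32.3% in replicate 1, 91.2% to 65.1% in replicate 2 and 90.1% to 58.5% in replicate 3, and was steepest in the smallest list. Among CpG-rich promoters alone it went from 94.8% to 35.2%. The part of GC-dependent library preparation in this pattern was not tested.

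**Figure D5:**
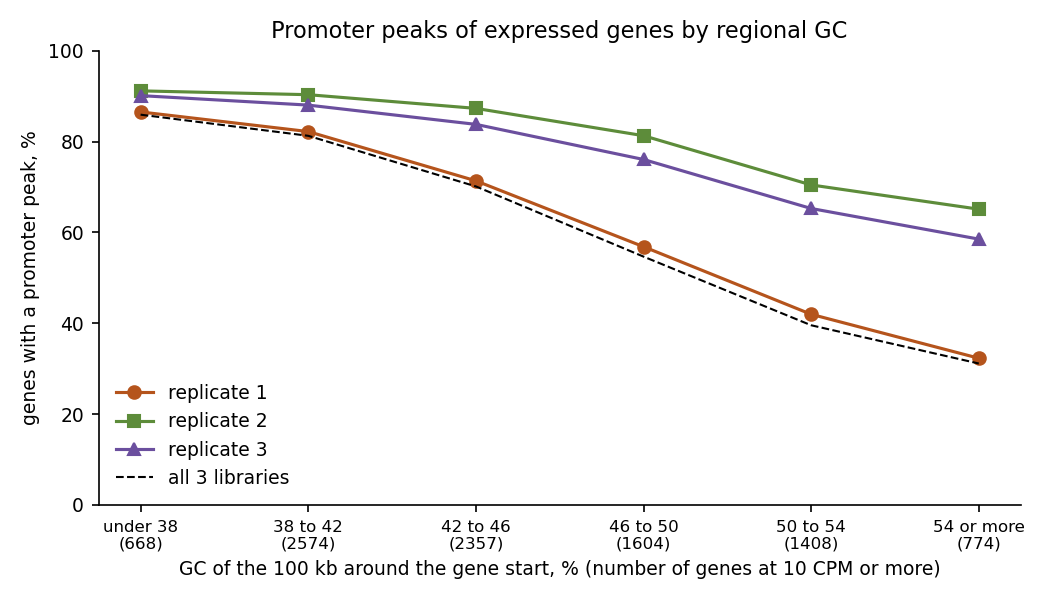
Share of genes at 10 CPM or more with a promoter peak (%), by GC of the 100 kb around the start, for each shControl ATAC library (coloured lines) and for all 3 together (dashed). Every line falls with regional GC, that of replicate 1 from 86.5% to 32.3%.

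Chromosomes differed as well. Among genes at 10 CPM or more, 83.3% of 366 on chromosome 4 were in class 3, and 22.4% of 210 on chromosome 22, the lowest. Chromosomes 16, 19 and 17 followed from below, with 36.3%, 40.4% and 43.0%. Chromosome 22 was lowest in each shControl library and in the 3 shLOXL2 libraries together, by the most in replicate 1. There 23.8%, 64.3% and 59.0% of these genes had a peak in replicates 1 to 3, and 58.1% in all 3 shLOXL2 libraries. For chromosome 16, the next lowest, these values were 38.4%, 68.5%, 59.9% and 65.4%. For chromosome 4 these values were 83.9%, 91.8%, 90.4% and 88.5%. The median regional GC was 40.0% for these genes of chromosome 4 and 50.6% for those of chromosome 22, and their median RNA levels were 47.6 and 45.1 CPM. Chromosomes of similar regional GC also differed: at 43.4% and 43.1% GC, chromosomes 15 and 14 had 51.0% and 79.3% in class 3. The gap was widest in replicate 1. Chromosome 15 had 53.6%, 77.8% and 74.2% with a peak in replicates 1 to 3, and chromosome 14 had 80.3%, 90.3% and 87.5%.

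The opposite case, a promoter peak in all 3 libraries without a single RNA count, was rare, and most such genes had a close or overlapping neighbour. Of the 174 class 3 genes without a count, 120 had another protein-coding start within 1 kb and 123 overlapped another gene on the same strand, and 34 had neither. In class 3 genes at 1 CPM or more the shares were 25.0% and 9.63%, against 69.0% and 70.7% in those without a count. With little RNA instead of none, such genes were more numerous and less often had a neighbour. Of all 777 class 3 genes under 1 CPM, 383 had neither a close start nor a same-strand overlap, as had 138 of the 382 under 0.1 CPM. Where genes overlap on a strand, the authors' counting could split reads or leave them out, and the RNA counts of such genes are uncertain. Among the genes without a count, those with the best peak scores included FAM72D, C4orf51, PGAP4, CC2D2B, DAB1, EEF1E1-BLOC1S5, IL5RA, SEL1L2 and ENSG00000258529, all with a mean score percentile of 93.3 or more. PGAP4, DAB1, EEF1E1-BLOC1S5, IL5RA and ENSG00000258529 shared a start with another gene, and CC2D2B overlapped one on the same strand. FAM72D belongs to a family of near-identical copies, of which FAM72B had 1.51, 1.86 and 1.47 CPM, so its count is uncertain. SEL1L2 and C4orf51 had neither a shared start nor an overlap. For SEL1L2 the canonical start lies 5829 bases from the gene start and had no peak in any shControl library. PGAP4, DAB1 and IL5RA likewise had no peak at their canonical start.

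The class 3 promoters were found again in cells with the LOXL2 hairpin. LOXL2 itself had 455, 420 and 383 CPM in shControl and 131, 136 and 97.2 CPM in shLOXL2, so the groups did not overlap (log2 change -1.74, SE 0.107, edgeR adjusted p = 7.67e-07). Of the 7778 class 3 genes, 7714 (99.2%) had a promoter peak in all 3 shLOXL2 libraries and 4 in none. Of the 1956 class 2 genes 1610 (82.3%) had one in all 3, as had 501 (43.4%) of class 1 and 137 (1.62%) of class 0. The shLOXL2 lists held more peaks, 47232, 49614 and 55592, and what this adds to the counts cannot be told apart from a change in chromatin. With 27099 best-scoring peaks from every library, 336 genes without a shControl peak had one in at least 1 shLOXL2 library, against 735 with the full lists. Among genes at 10 CPM or more, the share with a peak in all 3 shLOXL2 libraries fell with regional GC from 90.1% to 59.0%. With all 3 shControl libraries it fell from 85.9% to 31.1%. Taken singly, shControl replicate 1, the smallest list, fell from 86.5% to 32.3%. Replicates 2 and 3 fell from 91.2% to 65.1% and from 90.1% to 58.5%, much like the shLOXL2 share.

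RNA changes after knockdown, in both directions, were found in every class. In edgeR's quasi-likelihood test with Benjamini-Hochberg adjustment, 42.9% of the 15602 genes tested passed 0.05, 21.6% higher and 21.3% lower in shLOXL2. Of tested genes, 46.2% of class 0 (1294 of 2802), 46.2% of class 1, 46.9% of class 2 and 49.6% of class 3 (3614 of 7288) were called. These shares were near the 48.2% of all 12790 grouped genes tested, of which 24.4% were higher and 23.8% lower. In class 0, 781 genes were higher and 513 lower, and in class 3, 1638 were higher and 1976 lower. Higher genes were thus 60.4% of the calls in class 0 and 45.3% in class 3. The median log2 change was 0.05 in class 0, -0.02 in class 3 and -0.003 over all tested genes, so the shift of a typical gene was small. The difference between classes was not tested. All 28 DNA replication and mitosis genes were lower, which puts 20 of them among the class 3 falls.

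Within the lineage lists, most luminal and epithelial genes that passed the test rose. Of 15 luminal genes tested 10 were higher and 1 lower, with a median log2 change of 0.48. Of 16 epithelial genes tested 9 were higher and 0 lower (median 0.45), with 24.4% of all grouped genes tested higher as the background. At an unadjusted p under 0.05, 0 of this list were lower in edgeR and 0 in DESeq2. Of 18 basal genes 8 were higher and 2 lower (median 0.13), and of 32 mesenchymal genes 9 were higher and 9 lower (median 0.01). AGR2, a secretory-pathway disulfide isomerase, rose from 18.7, 19.2 and 14.3 CPM to 49.0, 48.5 and 52.2 CPM (log2 change 1.56 ± 0.09 SE, edgeR adjusted p = 5.87e-07) and had no peak at its gene start in any of the 6 libraries, but a peak at another start in 2 shControl libraries. PRLR, the prolactin receptor, rose by 1.25 (SE 0.128) on the log2 scale, also without a peak at its gene start in either group, but with one at another start in all 3 shControl libraries. GATA3 fell by 0.25 (SE 0.0765), while its promoter peak went from 1 shControl library to 3 shLOXL2 libraries; its adjusted p of 0.02 became 0.0746 without shControl replicate 2, 0.0668 without shLOXL2 replicate 2 and 0.057 without shLOXL2 replicate 3.

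In the epithelial list LLGL2, a cell polarity gene, rose from 7.77, 8.61 and 7.76 CPM to 19.0, 19.3 and 17.9 CPM, and its promoter peak from 2 of 3 to 3 of 3 libraries. ELF3, an epithelial transcription factor, rose by 1.02 and the junction gene TJP3 by 0.97 on the log2 scale, with no peak at the gene start in either group. Among basal genes TAGLN, a smooth muscle actin-binding protein, fell from 10.9, 10.9 and 18.8 CPM to 4.75, 5.43 and 4.28 CPM, and its peak of 1 shControl library was in none of the shLOXL2 libraries. FOXC1 fell by 0.22 (adjusted p = 0.0335), a call lost with each of shControl replicates 1 and 2 and shLOXL2 replicates 1 and 2 left out (adjusted p 0.0511 to 0.126). ITGB4 and COL17A1, components of the hemidesmosome, rose by 0.78 and 0.59.

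Among mesenchymal genes SNAI2, a repressor of epithelial genes, fell from 37.0, 39.2 and 60.6 CPM to 20.9, 21.9 and 21.2 CPM with a promoter peak in all 6 libraries. CAV2, caveolin-2, fell by 0.91 without a peak at its gene start in any. COL1A2 fell by 0.87 from levels under 0.7 CPM, and its call was lost in DESeq2 (adjusted p = 0.125) and without shControl replicate 1 or shLOXL2 replicate 2 or 3 (edgeR adjusted p 0.0573 to 0.0822). COL1A1, S100A4 and MMP14 rose by 0.78, 0.76 and 0.38. MMP14 had 869, 805 and 691 CPM before and 976, 1004 and 1000 CPM after, with no peak at its gene start in any of the 6 libraries. SNAI2 and CAV2 fell with the class of their promoter unchanged, and MMP14 rose so. Most genes kept their class, 99.2% of class 3 and 91.3% of class 0, and the class does not measure how open a promoter was.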

How the data were processed

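RNA-seq and ATAC-seq of MDA-MB-231 cells with shControl (3 libraries each) were analysed, and those with shLOXL2 (3 each) for comparison; the ChIP-seq samples are not reported here. Samples were grouped by their titles and treatment. The members, gene lists and rules were chosen with earlier results of these data known. The deposited RNA files give whole-number counts, not normalized, for each gene. STAR 2.7.6a is named for RNA, and Bowtie2 2.4.2 and MACS2 2.2.7.1 for ATAC, per the submitters' processing notes, with genome builds GRCh37.p13 and hg19. The counting tool, its strand setting and the filter on peaks are not given in the sources used here. Each deposited ATAC file lists the peaks of 1 library, and the authors gave every peak a score. Peaks were read against GRCh37 with GENCODE 44 lifted to that build, and no peak lay beyond a chromosome end. Of the count rows, 96.1% matched the annotation without version. CPM used the library total. Promoter sequences come from the GRCh37 genome.

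Groups were compared with edgeR 4.0.16 in R 4.3.3 (filterByExpr, TMM, glmQLFit and glmQLFTest, threshold 0.05). Counts were also simulated for 15602 genes with 200 changed and the same spread (dispersion) for every gene. There, 74% of genes changed by a log2 of 0.5 and 91% of those changed by 1 were called, and 4.62% of calls were unchanged genes. The measured libraries gave far more calls, and shControl replicate 3 stood apart, so these shares need not hold for them. Alternatives were DESeq2 1.42.0, RLE scaling, no filter, a replicate block, each library left out, windows of 500 bases and 3 kb, other starts, equal numbers of peaks (27099 best-scoring) and peaks above the median score. Python 3.11.15, numpy 2.4.6 and pandas 2.3.3 were used for peaks and promoters. Genes were named by a rule: all genes of 4 lineage lists by class, with library values for a fixed subset, the 5 class 3 genes with the highest CPM per kb, the 10 class 0 genes with the most RNA, the 10 class 3 genes without a count with the best peak scores, and the 3 largest rises and falls of each lineage list. Some genes that this rule takes are not reported here.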

Additional observations from a re-analysis of the deposited data

How the results depend on the processing

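The order of RNA level between genes with a peak in every library and in none was the same under every alternative run. The median CPM with a peak in every library, 37.7 as reported, was 38.4 with a window of 500 bases, 36.5 with 3 kb, 37.0 with any transcript start, 39.0 with the canonical start (chosen after seeing the data), 38.3 with equal numbers of peaks, 37.2 with TMM library sizes, 40.8 for genes with at least 10 counts and 38.6 without neighbouring starts. In the class without a peak, 0.0163 as reported, it was 0.0218 with 500 bases, 0.0083 with 3 kb, 0.0068 with any start, 0.0083 with the canonical start, 0.0464 with equal numbers, 0.165 with peaks above the median score and 4.51 for genes with at least 10 counts. The share at 1 CPM or more with a peak in every library was, in percent, 90.5 with 500 bases, 88.5 with 3 kb, 89.4 with any start, 91.5 with the canonical start, 90.6 with equal numbers, 91.0 above the median score, 94.2 with at least 10 counts and 91.3 without neighbouring starts. In the class without a peak it was, in percent, 28.5, 22.8, 15.1, 19.5, 34.1, 41.8, 65.8 and 25.1 under the same 8 alternatives in this order. Peaks above the median score left 4085 genes with a peak in every library, and equal numbers left 336 genes with a peak after knockdown alone. These values moved by more than the SD between libraries, and the alternatives change which genes are counted.

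Leaving out 1 ATAC library gave 7801 to 9578 genes with a peak in every library and 8511 to 9261 in none, medians of 36.4 to 37.7 and 0.0163 to 0.0284 CPM, and shares at 1 CPM of 89.2% to 90.0% and 26.2% to 30.3%. Leaving out 1 RNA library gave medians of 37.55 to 37.97 and 0.0122 to 0.0124 CPM, and shares of 89.9% to 90.1% and 26.0% to 26.1%. For the knockdown, calls numbered 6686 as reported and 5421 to 7052 with 1 library left out, where a group then has 2 samples. The replicate block gave 5793 calls. Replicate numbers did not pair the libraries (correlations of deviations -0.0446, -0.0733 and -0.1), so this value bears on a shared number only. With the block the calls in class 0 were 694 higher and 451 lower and in class 3 1412 higher and 1715 lower, and every alternative kept more rises than falls in class 0 and more falls than rises in class 3. Of 72 counts of lineage list genes with a peak in every library or in none, 57 stayed within 1.5 times the reported count and 15 did not. Of 180 values for the named lineage genes under the alternatives, 168 kept their call and 12 lost it, all of GATA3, FOXC1 and COL1A2, FOXC1 also with the replicate block. Peak lists give no read depth, so a promoter without a peak was not detected as open at this depth and threshold.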

Other observations

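A stretch of chromosome 9 had neither peaks nor RNA, noticed after the values were seen. In the 3 shControl libraries no ATAC peak lay between positions 20732690 and 25677495 of GRCh37, a span of 4.94 Mb. The 24 protein-coding genes that start there held 1 count in all 3 RNA libraries together, and in the shLOXL2 libraries, where the span without a peak was also 4.94 Mb, they held 0. Among them are MTAP, a methionine salvage enzyme, CDKN2A and CDKN2B, which encode inhibitors of cell cycle kinases, and KLHL9, all with 0 counts in shControl and CpG ratios of 0.715, 1.07, 0.736 and 0.686. The interferon alpha genes, all 13 of which were in class 0, lie in the same stretch, so their class is not independent of it. At the edge, MLLT3 was in class 3 with 25.0 CPM.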
